A study of Mus musculus with 12 samples.

Results

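The 10 genes described here encode the kinase complex mTORC1, the proteins that switch it on and off, and the effectors through which it controls the translation of mRNAs with a 5′ terminal oligopyrimidine (TOP) motif. They are *Mtor*, *Rptor*, *Rheb*, *Tsc1*, *Tsc2*, *Larp1*, *Eif4ebp1*, *Eif4ebp2*, *Rps6kb1* and *Akt1s1*, chosen by name for their roles and not by any measured value, and they are 10 of the 20661 genes counted. RNA and ribosome footprints were measured in mouse embryonic fibroblasts (MEFs) in 3 groups, WT-shSCR, WT-shARF and Arf-/--shSCR, with 2 replicates per group and assay and 12 libraries in all. The WT MEFs carried the label C57BL/6J, while the study's methods name B6129SF2/J for them. The Arf-/- MEFs were of the strain B6.129X1-Cdkn2atm1Cjs/KaiJ, in which exon 1β of *Cdkn2a* is replaced by a neo cassette. MEFs of every group were at passage 4 and had received a lentiviral short hairpin RNA with puromycin selection, either shARF against Arf or the scrambled control shSCR. Genotype and strain background cannot be told apart in the comparisons with Arf-/- MEFs. The labels do not say whether replicates came from separate embryos or cultures, so the p-values measure the spread between these libraries, which may be technical.

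mTORC1 joins growth factor and amino acid signals to protein synthesis. The kinase MTOR acts with the scaffold RAPTOR (*Rptor*), which brings in substrates. The small GTPase RHEB activates the complex, the TSC1-TSC2 complex turns RHEB off, and PRAS40 (*Akt1s1*) binds RAPTOR as an inhibitor until it is phosphorylated. Active mTORC1 phosphorylates the 4E-BPs (*Eif4ebp1*, *Eif4ebp2*), which then release the cap-binding factor eIF4E, and S6 kinase 1 (*Rps6kb1*), which phosphorylates ribosomal protein S6. LARP1 (*Larp1*) binds the cap and the pyrimidine tract of TOP mRNAs, most of which encode ribosomal proteins and translation factors, and represses them when mTORC1 is off. These proteins are controlled largely by phosphorylation and binding, and counts of RNA or footprints report neither.

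On GRCm38 the genes of the core complex lie at chr4:148448611-148557683 (*Mtor*, plus strand), chr11:119602905-119899576 (*Rptor*, plus) and chr7:44848991-44855421 (*Akt1s1*, plus). The upstream switch lies at chr5:24802823-24842624 (*Rheb*, minus), chr2:28641228-28691167 (*Tsc1*, plus) and chr17:24595816-24632630 (*Tsc2*, minus). The effectors lie at chr8:27260329-27276674 (*Eif4ebp1*, plus), chr10:61428491-61452661 (*Eif4ebp2*, minus), chr11:86498871-86544805 (*Rps6kb1*, minus) and chr11:58009064-58062034 (*Larp1*, plus). Counts cover their coding exons.

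The start of each mRNA is where a TOP motif would lie. The annotated starts of the 4 members that held a pyrimidine run are therefore shown beside those of *Rpl15* and *Rpl35*. Of the study's TOP list, these genes had the longest run counted onward from a C at the start base. Each window holds 10 bases before the RefSeq start and 20 bases from it, on the transcribed strand of GRCm38.p6, the assembly that mm10 names. Capitals mark a C followed by at least 4 letters that are C or T.
*Mtor* (chr4:148448572-148448601, plus strand): CCTCCCCaCCTCCCTggcctagaagacagc
*Tsc2* (chr17:24632608-24632637, minus strand): ccccggaagtacgggttgcgCTTCCggcag
*Larp1* (chr11:58009054-58009083, plus strand): aggcgcgccggagCCTTCTgcccggcgcgc
*Akt1s1* (chr7:44850362-44850391, plus strand): ttgtgttcctagagcaggggCCTCTCTggg
*Rpl15* (chr14:18270967-18270996, minus strand): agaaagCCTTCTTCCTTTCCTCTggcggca
*Rpl35* (chr2:39005112-39005141, minus strand): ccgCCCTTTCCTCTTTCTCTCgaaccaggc
RefSeq start windows were found for 9 of the 10 members. A run stood somewhere in the window of 4 of these 9, and none of the 9 had, at the annotated start base, a C followed by 4 pyrimidines. The later of the runs of *Mtor* passes over its start base, which is a T. Over all 32851 entries of the table, 35.8% held a run in the window and 2.51% held one with a C at the start base. Of the 68 entries of genes on the study's TOP list, 57.4% held a run and 17.6% had it at the start base. The windows of *Rptor*, *Rheb*, *Tsc1*, *Eif4ebp2* and *Rps6kb1* held no such run. These are letters at annotated starts, and the starts used in these MEFs were not measured.

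The libraries held 1578627 to 3989908 reads on genes for RNA and 2544319 to 5157572 for footprints. *Cdkn2a*, which encodes ARF and INK4A, was at 44.8 and 41.4 normalised read counts (CPM, reads scaled to a fixed library total) in the RNA of WT-shSCR MEFs, at 27.7 and 32.4 in Arf-/--shSCR MEFs, and at 638 and 678 in the libraries labelled WT-shARF. The label WT-shARF therefore goes against its target in the counts, which do not separate ARF from INK4A, and every direction below is given by that label. At the protein level the study showed ARF knockdown in MEFs by immunoblot, and it described the hairpin as without effect on INK4A. Fibroblast markers were present in every library, with 10 of 10 detected in each group, and summed to 21350 to 24470, 22080 to 22450 and 16350 to 17460 CPM of RNA in the order WT-shSCR, WT-shARF, Arf-/--shSCR. Macrophage markers moved between groups: the summed RNA level of 12 markers was 679 to 695 CPM in WT-shSCR, 258 to 326 in WT-shARF and 48.4 to 83.9 in Arf-/--shSCR libraries, and 12 of 12 had reads in each group. The 8 mesothelial or epithelial markers summed to 96.2 to 96.5, 56.3 to 68.7 and 163 to 186 CPM of RNA in the same order, and *Upk3b*, *Lrrn4* and *Epcam* had no footprints in WT-shSCR MEFs. The 4 endothelial markers summed to at most 38.8 CPM of RNA in any library, with *Cdh5* at 0 in the RNA of WT-shSCR and Arf-/--shSCR MEFs. In bulk samples fewer cells of a type and less RNA per cell cannot be told apart.

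Each of the 10 members had reads in each of the 12 libraries, and all 10 passed the filter on low counts in every test. Of 90 tests (10 genes, 3 comparisons, and RNA, footprints or their ratio, the translation efficiency TE), 2 passed an adjusted p of 0.05, both in footprints. Of all genes tested, 2.57% to 7.93% were called in RNA, 8.23% to 18.5% in footprints and 0.0354% to 0.194% in TE, depending on the comparison. *Eif4ebp1* footprints were higher in WT-shARF than in WT-shSCR MEFs, and *Akt1s1* footprints were lower in Arf-/--shSCR than in WT-shARF MEFs. No member passed the threshold between Arf-/--shSCR and WT-shSCR MEFs, and none did for TE in any comparison by edgeR. DESeq2 called *Akt1s1* in footprints of Arf-/--shSCR against WT-shARF MEFs and no other member value, with no adjusted p for 29 of the 30 TE values, 3 of 30 RNA values and 2 of 30 footprint values. The plot of levels by library shows the values behind these tests.

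**Figure D1:**
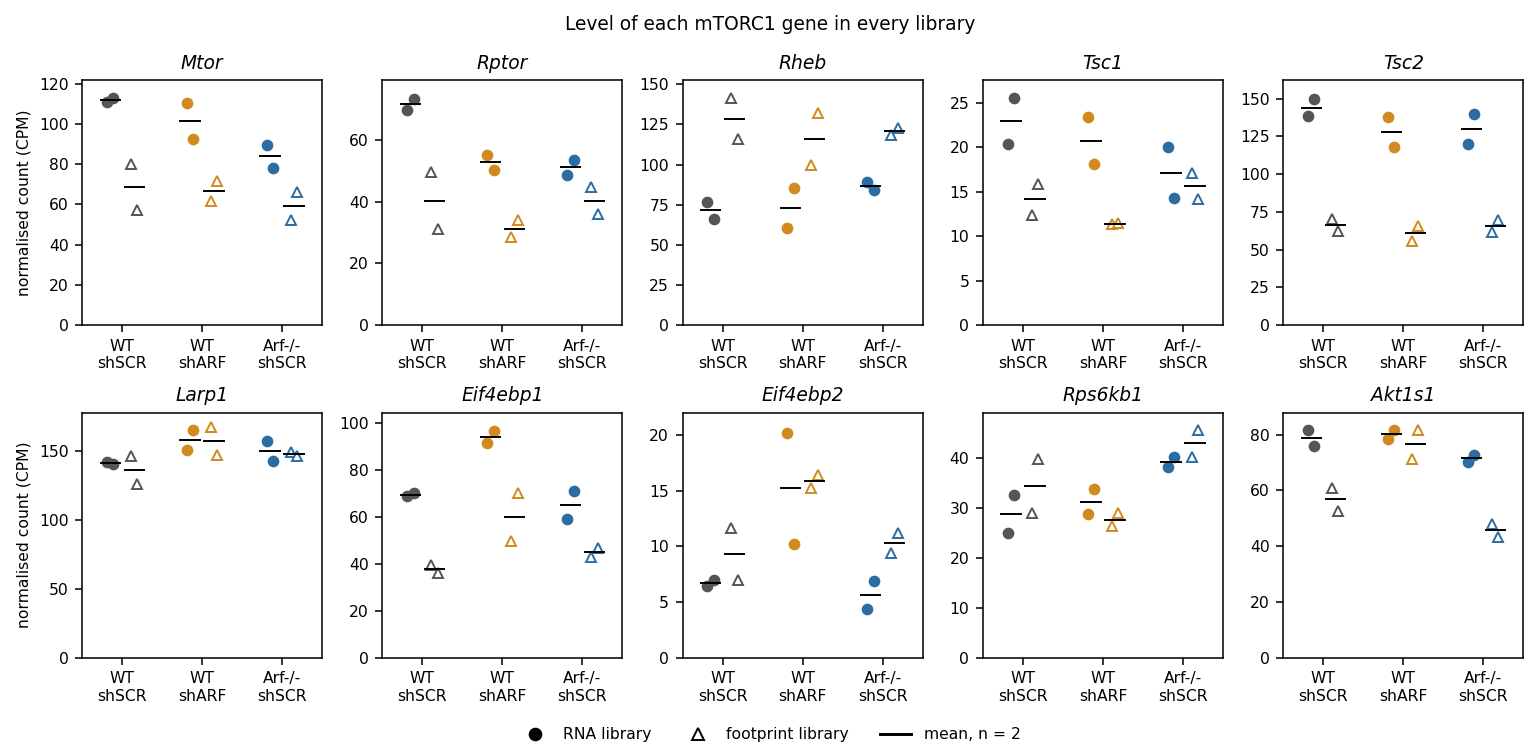
Normalised counts (CPM, y axis from 0) of each of the 10 genes in the 3 groups (x axis); filled circles are RNA libraries, open triangles footprint libraries and black lines the mean of 2 replicates. The WT-shARF footprints of *Akt1s1* (71.4 and 81.6 CPM) lie above both other groups, and the *Eif4ebp1* values of WT-shARF lie above both other groups in RNA and in footprints.

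Levels differed far more between genes than between groups. Per kilobase of coding sequence, *Eif4ebp1* (198 ± 3.06 CPM per kb, SD, n = 2) and *Rheb* (130 ± 13.6) led the RNA of WT-shSCR MEFs, followed by *Akt1s1* (72.5 ± 3.86), *Larp1* (43.8 ± 0.409) and *Tsc2* (26.1 ± 1.47). *Eif4ebp2* (18.6 ± 1.19) and *Rptor* (17.8 ± 0.630) had overlapping replicates, as did *Rps6kb1* (14.8 ± 2.79) and *Mtor* (14.5 ± 0.184), and *Tsc1* was lowest at 6.41 ± 1.02. These levels placed *Eif4ebp1* at the 96.1 percentile and *Tsc1* at the 48.0 percentile of 16106 genes with reads. In footprints the first 2 places changed hands. *Rheb* held 233 ± 32.6 CPM per kb in WT-shSCR MEFs and *Eif4ebp1* 108 ± 7.25, and *Tsc1* was again lowest at 3.94 ± 0.70. *Tsc1* had the lowest per-length level of the 10 in both assays in each of the 3 groups. *Rheb* led the footprints and *Eif4ebp1* the RNA in each group, although the footprint replicates of these 2 genes overlapped in WT-shARF MEFs.

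Genes whose products act together did not all have equal RNA or footprint levels. The per-length level of *Tsc2* was 4.11 ± 0.42 times that of *Tsc1*, its partner (SD, n = 2), in the RNA and 3.13 ± 0.82 times in the footprints of WT-shSCR MEFs. In Arf-/--shSCR MEFs these ratios were 5.13 ± 1.75 and 2.77 ± 0.61, and the replicates of the groups overlapped. *Mtor* and *Rptor* stood near parity, with a ratio of 0.81 ± 0.02 in RNA and 0.90 ± 0.09 in footprints of WT-shSCR MEFs. Of the 4E-BPs, *Eif4ebp1* stood at 10.6 ± 0.51 times *Eif4ebp2* in RNA and 4.39 ± 1.29 times in footprints of WT-shSCR MEFs. *Eif4ebp1* RNA per length was 2.02 ± 0.01 times that of *Eif4e*, the factor that it binds, while its footprints were 0.76 ± 0.15 times those of *Eif4e*. These ratios are descriptions and were not tested.

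The TE level, footprint CPM over RNA CPM, separated the members into those well below and those above the median gene. In WT-shSCR MEFs the median of 9007 genes was 0.99. *Tsc2* had the lowest TE of the 10 at 0.46, with a range of 0.42 to 0.51 over the 4 pairings of its replicates, and lay at the 9.16 percentile. *Eif4ebp1* (0.55), *Rptor* (0.56), *Mtor* (0.61), *Tsc1* (0.62) and *Akt1s1* (0.72) were also below the median. *Larp1* stood near it at 0.96, and *Rps6kb1* (1.199), *Eif4ebp2* (1.39) and *Rheb* (1.80) lay above it, although the pairings of *Rps6kb1* and *Eif4ebp2* reached below 1. *Tsc2* stayed lowest in WT-shARF (0.47) and Arf-/--shSCR MEFs (0.51), and *Larp1* stayed near the median at 0.996 and 0.987. The negative regulator *Tsc2* and its target *Rheb* thus sat at opposite ends in WT-shSCR MEFs, with pairings that did not overlap.

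**Figure D2:**
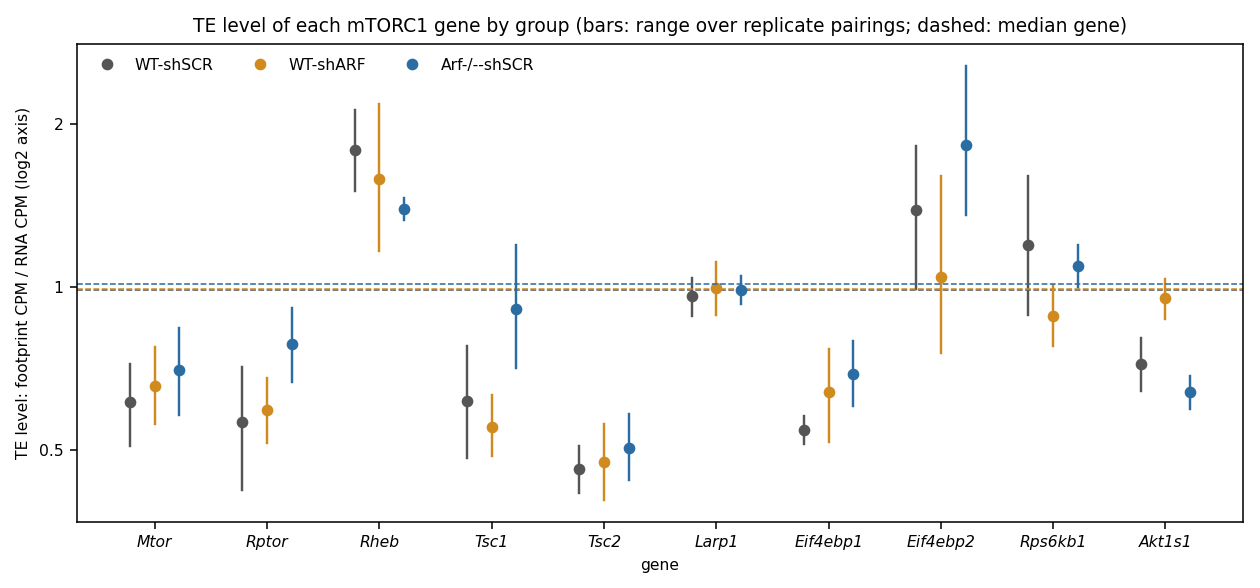
TE level (footprint CPM over RNA CPM, log2 axis) of each gene in the 3 groups; points are the ratio of group means, bars the range over the 4 pairings of replicates and dashed lines the median of all genes in each group (0.99 in WT-shSCR MEFs). *Tsc2* lies lowest in each group (0.46, 0.47 and 0.51), *Larp1* lies near the median, and the *Akt1s1* bars of WT-shARF lie above those of both other groups.

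The first comparison sets Arf-/--shSCR against WT-shSCR MEFs, which differ in Arf genotype, strain background and macrophage marker levels. Below, the words after knockout name this comparison and not an effect of Arf alone. Between Arf-/--shSCR and WT-shSCR MEFs the members' log2 fold changes ranged from -0.50 to 0.46 in RNA and from -0.35 to 0.29 in footprints. In RNA, 0 of 10 members were called against 7.93% of 10659 genes tested, and 2 of 10 had an unadjusted p under 0.05 against 22.3%. The replicates of the groups did not overlap for 7 of 10 members, against 51.6% of genes. In footprints, 0 of 10 were called against 18.5% of 10737 genes, 0 of 10 had an unadjusted p under 0.05 against 30.0%, and 4 of 10 did not overlap against 57.6%. In TE, 0 of 10 were called against 0.194% of 11314 genes, 0 had an unadjusted p under 0.05 against 6.83%, and 2 did not overlap (*Rheb* lower, *Eif4ebp1* higher) against 20.3%. The median log2 fold change of the members was -0.16 in RNA, 0.021 in footprints and 0.11 in TE, beside -0.0038, -0.00087 and -0.036 over all genes tested.

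Of the core complex, *Mtor* RNA was at 111 and 113 CPM in WT-shSCR and 89.5 and 78.3 CPM in Arf-/--shSCR MEFs. Both Arf-/- libraries lay below both controls, and the log2 fold change was -0.43 ± 0.18 (SE), which did not pass (adjusted p = 0.175). Its footprints overlapped, at 79.9 and 57.3 against 52.0 and 66.0 CPM. *Rptor* RNA showed the same order, with 69.7 and 73.3 CPM in WT-shSCR and 48.8 and 53.6 CPM in Arf-/--shSCR MEFs (log2 fold change -0.50 ± 0.21, adjusted p = 0.159). *Rptor* footprints did not follow. They were at 49.7 and 31.0 CPM in WT-shSCR and 44.7 and 35.8 CPM in Arf-/--shSCR MEFs, so the Arf-/- values lay inside the control range.

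For the switch upstream of the kinase no change passed the threshold either. *Rheb* RNA was at 76.9 and 66.3 CPM in WT-shSCR and 89.2 and 83.9 CPM in Arf-/--shSCR MEFs, without overlap, while its footprints (141 and 116 against 118.5 and 123 CPM) overlapped. Its TE change was the most negative of the 10, at -0.41 (95% interval -0.88 to 0.062, adjusted p = 0.774). *Tsc2* RNA (138 and 150 against 120.1 and 140.1 CPM) and footprints (70.5 and 62.4 against 61.6 and 69.9 CPM) both overlapped. *Tsc1* rested on 33 to 87 reads per library in these groups, and its RNA change was -0.41 (95% interval -1.11 to 0.29). Its TE change was the most positive of the 10, at 0.50 (95% interval -0.46 to 1.46, adjusted p = 0.886). *Akt1s1* footprints were at 61.0 and 52.7 CPM in WT-shSCR and 48.1 and 43.3 CPM in Arf-/--shSCR MEFs. The groups did not overlap, and the change of -0.35 ± 0.18 did not pass (adjusted p = 0.196).

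Among the effectors, *Larp1* had the narrowest intervals of the 10 genes in both assays. Its RNA was at 142 and 140.2 CPM in WT-shSCR and 157 and 142 CPM in Arf-/--shSCR MEFs, and its footprints were at 145.8 and 126 against 149 and 146.3 CPM, so the groups only just parted in each assay. The 95% intervals of its log2 fold change ran from -0.27 to 0.42 in RNA and from -0.18 to 0.35 in footprints, so a doubling of either lies outside them. *Rps6kb1* was higher in both Arf-/- libraries in both assays, with RNA at 24.9 and 32.5 against 38.2 and 40.2 CPM (log2 fold change 0.46 ± 0.26, adjusted p = 0.315) and footprints at 28.9 and 39.9 against 40.2 and 45.7 CPM (0.29 ± 0.21, adjusted p = 0.384). *Eif4ebp1* RNA overlapped (68.6 and 70.1 against 59.0 and 70.9 CPM), and its footprints were at 39.6 and 36.0 against 42.8 and 46.9 CPM (0.21 ± 0.20, adjusted p = 0.528). *Eif4ebp2* had 11 to 17 RNA reads in these 4 libraries, and the interval of its RNA change, from -1.43 to 0.90, holds both a halving and a rise by over 1.5 times.

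The second comparison sets the libraries labelled WT-shARF against WT-shSCR. In RNA, 0 of 10 members were called against 7.28% of 10503 genes, 3 of 10 had an unadjusted p under 0.05 against 21.1%, and 6 of 10 did not overlap against 49.5%. In footprints, 1 of 10 was called against 11.1% of 10307 genes, or 5.63% counting higher calls alone, 2 of 10 had an unadjusted p under 0.05 against 23.5%, and 5 of 10 did not overlap against 51.5%. In TE, 0 of 10 were called against 0.0354% of 11289 genes, 0 had an unadjusted p under 0.05 against 6.65%, and 1 did not overlap (*Akt1s1*, higher) against 19.7%. Medians of the members were 0.015 in RNA, -0.091 in footprints and 0.066 in TE, beside -0.0012, -0.0028 and 0.0065 over all genes.

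*Eif4ebp1*, the translation inhibitor 4E-BP1, was the member called. Its footprint libraries held 122 and 93 reads in WT-shSCR and 140 and 337 in WT-shARF, or 39.6 and 36.0 against 49.8 and 70.1 CPM. Both WT-shARF libraries lay above both controls, and the WT-shARF replicates lay further apart than the controls did. The log2 fold change was 0.66 ± 0.21 (SE), a 1.58-fold rise with an adjusted p of 0.0356. RNA of *Eif4ebp1* was at 68.6 and 70.1 CPM in WT-shSCR and 91.3 and 96.3 CPM in WT-shARF MEFs (0.42 ± 0.18, adjusted p = 0.160), and the TE change was 0.26 (95% interval -0.30 to 0.81). The footprint call did not hold without WT-shARF replicate 2 (0.39, adjusted p = 0.550), without WT-shSCR replicate 2 (0.61, adjusted p = 0.0836) or with DESeq2 (0.66, adjusted p = 0.132). The summed footprints of 12 macrophage markers were at 791 to 798 CPM in WT-shSCR and 312 to 383 CPM in WT-shARF libraries, and their part in this result was not tested.

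*Eif4ebp2*, the other 4E-BP, had the largest estimates of the members in RNA and in footprints. Its RNA was at 6.41 and 7.01 CPM in WT-shSCR and 20.2 and 10.2 CPM in WT-shARF MEFs, from 11 to 43 reads per library (log2 fold change 1.11 ± 0.47, adjusted p = 0.165). Its footprints were at 11.7 and 6.97 against 15.3 and 16.4 CPM (0.74 ± 0.41, adjusted p = 0.273). The groups did not overlap in either assay, and neither value passed the threshold. *Akt1s1* RNA was nearly level, at 81.8 and 75.8 against 78.6 and 81.8 CPM (log2 fold change 0.0052 ± 0.18). Its footprints were at 61.0 and 52.7 CPM in WT-shSCR and 71.4 and 81.6 CPM in WT-shARF MEFs, without overlap (0.42 ± 0.18, adjusted p = 0.140).

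*Rptor* was the only member with an unadjusted p under 0.05 in RNA against WT-shSCR in both other groups, and these comparisons share their controls. In WT-shARF MEFs its RNA was at 55.2 and 50.2 CPM, a log2 fold change of -0.46 ± 0.19 (adjusted p = 0.153), and its footprints (28.4 and 34.1 CPM) overlapped the controls. *Mtor* RNA (110.4 and 92.7 CPM) lay just under the WT-shSCR range (-0.16 ± 0.17), and its footprints (61.8 and 71.8 CPM) inside it. *Larp1* was at 150.2 and 165 CPM in RNA and 167 and 147 CPM in footprints, above both controls in each assay, with log2 fold changes of 0.14 ± 0.15 and 0.19 ± 0.13 that did not pass. The values of *Rheb*, *Tsc1*, *Tsc2* and *Rps6kb1* ranged from -0.19 to 0.14 in RNA and from -0.32 to -0.13 in footprints, with adjusted p-values of 0.503 and above.

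The third comparison, Arf-/--shSCR against WT-shARF MEFs, tests the difference between the changes of the first and second comparisons, since both share WT-shSCR as control. In RNA, 0 of 10 members were called against 2.57% of 10632 genes, 2 of 10 had an unadjusted p under 0.05 against 16.4%, and 5 of 10 did not overlap against 47.1%. In footprints, 1 of 10 was called against 8.23% of 10941 genes, or 4.30% counting lower calls alone, 3 of 10 had an unadjusted p under 0.05 against 21.0%, and 6 of 10 did not overlap against 50.6%. In TE, 0 of 10 were called against 0.0430% of 11632 genes, 1 had an unadjusted p under 0.05 (*Akt1s1*) against 7.57%, and 2 did not overlap (*Tsc1* higher, *Akt1s1* lower) against 21.0%.

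*Akt1s1*, which encodes the mTORC1 inhibitor PRAS40, had lower footprints in Arf-/--shSCR MEFs. Its footprint libraries held 201 and 392 reads in WT-shARF and 245 and 220 in Arf-/--shSCR, or 71.4 and 81.6 against 48.1 and 43.3 CPM. The groups were well apart, and the WT-shSCR libraries (61.0 and 52.7 CPM) lay between them. The log2 fold change was -0.78 ± 0.16 (SE), a level 0.58 times that of WT-shARF, with an adjusted p of 0.0044. Its RNA was at 78.6 and 81.8 against 70.3 and 72.7 CPM (-0.18 ± 0.17, adjusted p = 0.678), and its TE level was 0.95 in WT-shARF and 0.64 in Arf-/--shSCR MEFs, which did not pass the test across genes (-0.61, 95% interval -1.09 to -0.12, adjusted p = 0.553). With DESeq2 the footprint value was -0.78 (adjusted p = 0.0098). Without WT-shARF replicate 1 or 2 it was -0.85 (adjusted p = 0.310) or -0.69 (adjusted p = 0.303), and 0 and 1 genes of the whole table were then called. Macrophage markers summed to 53.6 to 73.4 CPM of footprints in Arf-/--shSCR MEFs, and of 11 markers tested in footprints 7 were called lower than in WT-shSCR in WT-shARF and 11 in Arf-/--shSCR MEFs. Their part in this result was not tested.

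The other effectors parted in direction here. *Rps6kb1* footprints were at 26.3 and 28.9 CPM in WT-shARF and 40.2 and 45.7 CPM in Arf-/--shSCR MEFs (log2 fold change 0.60 ± 0.19), the next closest to the threshold with an adjusted p of 0.0634. *Eif4ebp1* was lower in Arf-/--shSCR MEFs in RNA (91.3 and 96.3 against 59.0 and 70.9 CPM, -0.54 ± 0.17, adjusted p = 0.126) and in footprints (49.8 and 70.1 against 42.8 and 46.9 CPM, -0.46 ± 0.18, adjusted p = 0.134). *Eif4ebp2* RNA, at 20.2 and 10.2 against 4.37 and 6.92 CPM, gave -1.39 ± 0.48 (adjusted p = 0.154). The replicates of these groups did not overlap for either 4E-BP in either assay. *Larp1* RNA and footprints overlapped, with intervals of -0.39 to 0.22 and -0.35 to 0.13. *Mtor* RNA was lower in both Arf-/- libraries (110.4 and 92.7 against 89.5 and 78.3 CPM, -0.27 ± 0.17, adjusted p = 0.477). *Rptor* and *Tsc1* footprints lay higher in both Arf-/- libraries (0.32 ± 0.20 and 0.42 ± 0.32) with adjusted p-values of 0.382 and 0.501.

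**Figure D3:**
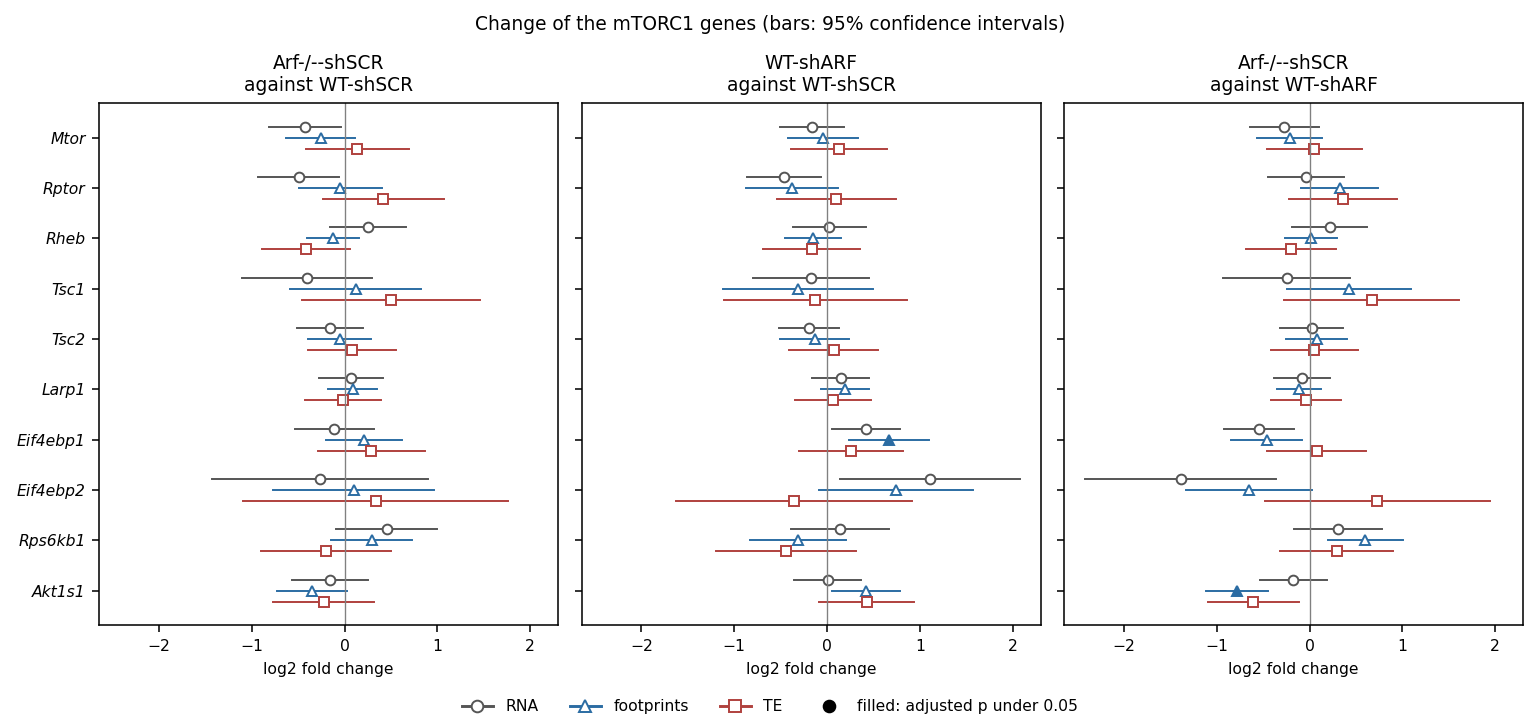
Log2 fold changes (x axis) of RNA, footprints and TE of each gene in the 3 comparisons, with 95% confidence intervals; filled symbols passed an adjusted p of 0.05. The filled symbols are the footprints of *Eif4ebp1* in WT-shARF against WT-shSCR (0.66) and of *Akt1s1* in Arf-/--shSCR against WT-shARF (-0.78), and the widest bars belong to *Eif4ebp2*, which rested on 11 to 79 reads per library.

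The wider pathway was read from lists of 89 other genes, of which 86 were tested in at least 1 comparison and *Rragb*, *Rragd* and *Eif4ebp3* in none by edgeR. DESeq2 called *Rragd* lower in footprints after knockout (adjusted p = 0.0463). In footprints of Arf-/--shSCR against WT-shSCR MEFs, edgeR called 10 of 86 higher and 7 lower, beside 9.57% and 8.95% of all genes tested, with a median log2 fold change of 0.037. In RNA 1 of 84 rose and 3 fell, beside 3.94% and 3.99%. In TE 0 of 85 were called by edgeR, with 4 at an unadjusted p under 0.05, and DESeq2 called 1 (*Rps6*). In WT-shARF against WT-shSCR MEFs, 3 of 84 rose and 2 fell in footprints, beside 5.63% and 5.50%, and 0 rose and 1 of 84 fell in RNA, beside 3.11% and 4.17%. In TE 0 of 85 were called by edgeR, with 3 at an unadjusted p under 0.05, and 0 by DESeq2. In each of the 3 comparisons DESeq2 gave most of the list genes no adjusted p for TE. Between Arf-/--shSCR and WT-shARF MEFs, 6 of 86 rose and 2 fell in footprints, beside 3.93% and 4.30%, and 1 of 85 rose and 1 fell in RNA, beside 1.38% and 1.19%. In TE 0 of 86 were called by edgeR, with 7 at an unadjusted p under 0.05, and DESeq2 called 1 (*Pabpc1*). These TE calls were named after their values were seen. Without WT-shSCR replicate 1 or replicate 2 no gene of the whole table was called in footprints after knockout, with 2467 and 2553 genes at an unadjusted p under 0.05, so each call of that comparison rests on both control libraries. In the same way 0 and 1 genes were called in footprints of Arf-/--shSCR against WT-shARF MEFs without WT-shARF replicate 1 or replicate 2, with 1453 and 1643 at an unadjusted p under 0.05.

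The amino acid branch is the arm through which nutrient sensors act on mTORC1 at the lysosome. In footprints after knockout 1 of its 27 tested genes rose and 4 fell, and the 5 calls are near the share of all genes (18.5%). In RNA 0 of 27 rose and 2 fell, beside 7.93% of all genes called. *Sesn2*, a leucine sensor that p53 induces, was at 45.1 and 34.9 CPM of footprints in WT-shSCR, 38.4 and 43.5 in WT-shARF and 22.8 and 27.2 in Arf-/--shSCR MEFs. It fell in Arf-/--shSCR MEFs against both other groups, by a log2 of 0.72 ± 0.23 (adjusted p = 0.0269) and 0.75 ± 0.20 (adjusted p = 0.0261) in footprints and by 1.10 ± 0.27 (adjusted p = 0.0157) and 1.07 ± 0.24 (adjusted p = 0.0298) in RNA. DESeq2 called none of these 4 changes (adjusted p = 0.192, 0.139, 0.114 and 0.113), which ranged over 12 alternatives from -0.88 to -0.51, -0.88 to -0.63, -1.29 to -0.89 and -1.20 to -0.93. Without Arf-/--shSCR replicate 1, 3 of the 4 calls were lost, all but RNA against WT-shARF, and without replicate 2 that of footprints against WT-shSCR. In RNA the calls were also lost without either WT-shSCR or WT-shARF replicate, where fewer genes of the whole table were called. The RNA call against WT-shARF was also lost with the replicate block. Its relative *Sesn3* fell against WT-shSCR in RNA (15.5 and 12.7 against 5.46 and 3.03 CPM) and in footprints (16.2 and 17.0 against 9.81 and 5.91 CPM), with log2 fold changes of -1.72 and -1.11 that DESeq2 did not call (adjusted p = 0.232 and 0.215) and that ranged from -2.23 to -1.38 and from -1.52 to -0.79. In WT-shARF MEFs *Sesn3* was at 9.6 and 6.4 CPM of RNA and 5.7 and 9.2 CPM of footprints. It was not called against WT-shSCR there. Both *Sesn3* calls in Arf-/--shSCR MEFs were lost without Arf-/--shSCR replicate 2 or either WT-shSCR replicate. Its RNA was not tested with a minimum of 10 counts per library. Its footprint call was also lost without the filter (adjusted p = 0.0505) and with all groups in one fit (adjusted p = 0.0526).
Footprints of the arginine sensor *Castor1*, counted under its older name *Gatsl3*, fell from 19.8 and 20.1 CPM to 7.26 and 6.10 CPM (-1.61 ± 0.38, adjusted p = 0.00214). *Castor2*, counted as *Gatsl2*, fell from 27 and 20 reads in WT-shSCR to 6 and 7 in the Arf-/- libraries (-2.70 ± 0.69, adjusted p = 0.00431) and was also not called without either Arf-/- replicate (range -2.80 to -2.58).

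On the growth factor branch, *Grb10*, an adaptor of the insulin receptor and a substrate of mTORC1, moved in opposite directions in the 2 conditions (footprints 0.44 ± 0.082 and -0.60 ± 0.087, adjusted p = 0.000169 and 6.27e-06). Its footprints were at 581 and 563 CPM in WT-shSCR, 390 and 368 in WT-shARF and 778 and 806 in Arf-/--shSCR MEFs, so the 3 groups did not overlap. Between Arf-/--shSCR and WT-shARF MEFs its log2 fold change was 1.03 ± 0.073 in footprints (adjusted p = 2.85e-08) and 0.92 ± 0.13 in RNA (adjusted p = 0.00211). Both calls were lost without WT-shARF replicate 1 or 2, where few genes of the whole table were called in either assay. The values ranged from 0.98 to 1.09 and from 0.83 to 1.02 over 12 alternatives. In WT-shARF against WT-shSCR the footprint call held in 12 of 12 alternatives. *Pik3cb*, a catalytic subunit of PI3K, fell in Arf-/--shSCR against WT-shSCR MEFs in RNA, from 75.0 and 124 CPM to 42.2 and 57.5 CPM (-0.996 ± 0.24, adjusted p = 0.0149). Without WT-shSCR replicate 2 its value was -0.59 and did not pass. *Ddit4l*, a relative of the mTORC1 inhibitor REDD1, fell in footprints from 11.7 and 11.2 to 4.32 and 2.36 CPM (-1.80 ± 0.54, adjusted p = 0.0155; DESeq2 0.0755). It was also lost without Arf-/--shSCR replicate 2, and over the alternatives it ranged from -2.29 to -1.43. In WT-shARF MEFs *Ddit4l* footprints were at 6.75 and 6.66 CPM and were not called against WT-shSCR.
The list of mTORC1 inhibitors that p53 induces shares 7 of its 8 genes with the other lists or the members, and *Sesn2* was the gene called on it. The 9 other subunits and assembly factors of mTORC1 and mTORC2 gave 0 calls by edgeR in RNA, footprints and TE in each comparison, with at most 2 at an unadjusted p under 0.05. DESeq2 also gave 0 calls, but it gave none of these 9 genes an adjusted p in TE and so could call none there. In WT-shARF against WT-shSCR it gave an adjusted p to 3 of 9 in RNA and 2 of 9 in footprints.

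Effectors beside the members were called by edgeR in footprints and not in RNA or TE, where at most 3 had an unadjusted p under 0.05 in a comparison. In footprints of Arf-/--shSCR against WT-shSCR MEFs, 3 of 15 rose and 1 fell, beside 9.57% and 8.95% of all genes. *Rps6*, the ribosomal protein that S6 kinase phosphorylates and itself on the study's TOP list, rose from 874 and 788 CPM to 1303 and 1216 CPM of footprints (0.57 ± 0.077, adjusted p = 1.57e-06), and to 1055 and 984 CPM in WT-shARF MEFs (0.28 ± 0.076, adjusted p = 0.0115, lost without WT-shARF replicate 1 or WT-shSCR replicate 2, range 0.22 to 0.35). Its RNA was at 1119 to 1310 CPM in the 6 libraries, with log2 fold changes of 0.12 ± 0.14 and -0.033 ± 0.12, and its TE changes of 0.41 (adjusted p = 0.462) and 0.33 (adjusted p = 0.690) did not pass with edgeR. DESeq2 called the first of them (0.45 ± 0.14, adjusted p = 0.0333). The helicase gene *Eif4a1* rose in Arf-/--shSCR footprints against WT-shSCR (0.42 ± 0.066, adjusted p = 1.28e-05) and against WT-shARF MEFs (0.46 ± 0.053, adjusted p = 1.38e-05), and its cofactor gene *Eif4b* rose against WT-shSCR in both conditions (0.51 ± 0.10 and 0.33 ± 0.099). The *Eif4b* call in WT-shARF MEFs was lost without either WT-shARF replicate or WT-shSCR replicate 1 (range 0.28 to 0.38). *Pdcd4*, whose product blocks that helicase, fell from 36.4 and 34.5 to 19.0 and 15.2 CPM of footprints in Arf-/--shSCR MEFs (-1.08 ± 0.26, adjusted p = 0.00262). Without Arf-/--shSCR replicate 2 this call was lost, and the value ranged from -1.25 to -0.92. In WT-shARF MEFs *Pdcd4* footprints were at 18.8 and 24.3 CPM and were not called against WT-shSCR.
*Eif4e* footprints were at 87.0 and 105 CPM in WT-shSCR, 108 and 120.5 in WT-shARF and 127 and 114 in Arf-/--shSCR MEFs, with log2 fold changes of 0.25 ± 0.15 and 0.30 ± 0.15 against WT-shSCR that did not pass (adjusted p = 0.331 and 0.157). *Eif4g1*, the scaffold that eIF4E binds, differed by at most 0.12 in RNA and 0.054 in footprints against WT-shSCR, and its footprint intervals lay within -0.18 and 0.23.

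Other proteins that bind TOP mRNAs rose in footprints after knockout in 5 of 9 cases, with none lower and a median of 0.39, beside 9.57% of all genes called higher and a median of -0.00087. The medians of the list were 0.34 in RNA, with 1 of 9 called, and -0.030 in TE, with 0 of 9 called by edgeR or DESeq2 and 2 and 1 at an unadjusted p under 0.05. DESeq2 gave an adjusted p for TE to 4 of these 9 genes. *Hnrnpd* (AUF1) rose from 129 and 133 CPM to 222 and 236 CPM (0.77 ± 0.12, adjusted p = 1.41e-05), and *Cnbp*, *Pabpc1*, *Larp4* and *Ssb* rose by 0.31 to 0.45, of which DESeq2 did not call *Larp4* (adjusted p = 0.0853) and *Ssb* (adjusted p = 0.0866). These 2 calls were also lost without either Arf-/--shSCR replicate, and that of *Ssb* with the crossed replicate block, with ranges of 0.36 to 0.52 and 0.25 to 0.38. *Ssb*, which encodes the La protein, also rose in RNA (58.4 and 63.7 against 96.5 and 112 CPM, 0.76 ± 0.20, adjusted p = 0.0217, DESeq2 0.0843). That RNA call was also lost without Arf-/--shSCR replicate 2 or either WT-shSCR replicate, with a range of 0.66 to 0.86. In footprints of WT-shARF against WT-shSCR MEFs 1 of 9 rose (*Cnbp*, 0.31 ± 0.092, adjusted p = 0.0219) and 1 fell, beside 5.63% and 5.50% of all genes. The list median there was 0.17, and the *Cnbp* call was lost without either WT-shARF replicate or WT-shSCR replicate 1. Between Arf-/--shSCR and WT-shARF MEFs 3 of 9 were called higher and 0 lower in footprints, beside 3.93% and 4.30%. *Tia1*, a repressor of TOP mRNA translation, was lowest in WT-shARF MEFs, with footprints at 19.5 and 29.8 CPM in WT-shSCR, 9.95 and 13.3 in WT-shARF and 32.2 and 33.7 in Arf-/--shSCR MEFs. It fell in WT-shARF against WT-shSCR MEFs (-1.07 ± 0.35, adjusted p = 0.0434, range -1.36 to -0.73, lost without WT-shARF replicate 1 or 2 or WT-shSCR replicate 2 or with the crossed replicate block, and with no adjusted p by DESeq2) and was higher in Arf-/--shSCR than in WT-shARF MEFs (1.44 ± 0.26, adjusted p = 0.0013, lost without either WT-shARF replicate, range 1.29 to 1.68). *Pabpc1* is itself on the study's TOP list. Its TE in Arf-/--shSCR against WT-shARF MEFs was 0.79 ± 0.17 with edgeR (adjusted p = 0.117) and 0.78 ± 0.19 with DESeq2 (adjusted p = 0.00289). *Pabpc1* RNA was at 622 and 458 CPM in WT-shARF, 399 and 351 in Arf-/--shSCR and 419 and 676 in WT-shSCR MEFs. Its footprints differed by 0.26 ± 0.067 in that comparison, so most of the TE value came from lower RNA, which varied between replicates.
The study used its TOP list on these samples, so the list is not independent evidence of direction. Of its 77 tested genes, 77 were called higher in footprints after knockout and 60 in WT-shARF, with median log2 fold changes of 0.51 and 0.33. Of all genes tested in footprints, 9.57% and 5.63% were called higher, with medians of -0.00087 and -0.0028. In TE, edgeR called 6 and 1 of the 77 higher, beside 0.0884% and 0.0354% of all genes, with list medians of 0.499 and 0.437. The 10 regulators had medians of 0.021 and -0.091 in footprints of the same comparisons.

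**Figure D4:**
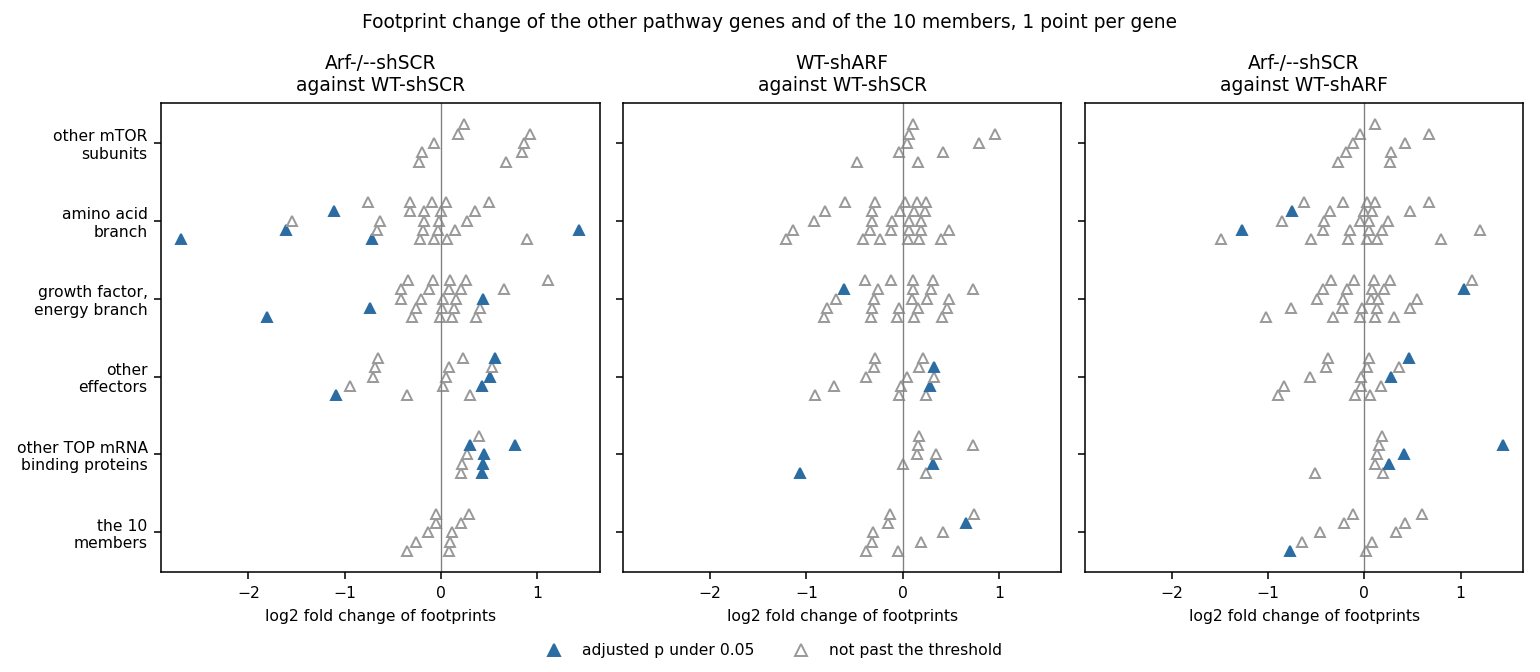
Log2 fold change of footprints (x axis) in the 3 comparisons, 1 triangle per gene, for the other pathway lists and the 10 members (rows; *Igfbp3* is not drawn); filled triangles passed an adjusted p of 0.05. The members lie between -0.78 and 0.74, and 5 of 9 of the other TOP mRNA binding proteins are filled and positive in the first panel.

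Genes whose pattern was most like that of 3 members were found by Pearson's r of log2(CPM + 1) over the 12 libraries, among 7489 genes with a mean of at least 10 CPM in both assays. For *Mtor* these were *Ric1* (r = 0.955), *Galnt18* (0.947) and *Lats2* (0.943), and for *Eif4ebp1* they were *Abcb6* (0.970), *Mrpl37* (0.951) and *Ndst1* (0.944). For *Larp1* they were *Ints10* (0.914), *Ankle2* (0.871) and *Slain2* (0.859). The number of genes above 0.9 was 44 for *Mtor*, 24 for *Eif4ebp1* and 1 for *Larp1*. The libraries share 2 assays, so a gene whose footprints and RNA differ in level as the member's do correlates with it whatever the groups do.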

How the data were processed

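RNA and ribosome footprints were sequenced from MEFs of 3 groups, with 2 replicates per group and assay. Cells were footprinted with RNase T1, and total RNA was fragmented to short lengths. The authors deposited raw counts of reads for each gene, made by clipping adapters, splitting barcodes, extracting molecular identifiers with UMI-tools, trimming with cutadapt, removing rRNA and other noncoding RNA with Bowtie2, aligning to mm10 with TopHat and counting reads on coding sequences with HTSeq. No removal of duplicate reads is named in the methods. Alignments that were not unique were 79.2% to 81.4% of RNA and 46.3% to 52.9% of footprint alignments, and genes with near-identical copies may be undercounted. The 5 summary rows of each file (94.7% to 96.8% of RNA and 57.1% to 64.8% of footprint alignments) were left out.

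Reads on genes had a median of 2560632 in RNA and 3954735 in footprint libraries, and intervals on counts cover these libraries only. edgeR 4.0.16 in R 4.3.3 fitted the quasi-likelihood F test with TMM factors and filterByExpr, over 4 libraries for RNA or footprints and over 8 for TE, the interaction of assay and condition. P-values were adjusted over all genes tested by Benjamini-Hochberg, and calls had an adjusted p under 0.05. With 2 against 2 an exact permutation test cannot go below 0.33. CPM used TMM factors over the 6 libraries of an assay, and a mean of 5 CPM in both assays was required for the TE median. The study's methods name DESeq2 for TE. Here DESeq2 1.42.0 was an alternative, beside RLE factors, TMM factors computed with TOP and ribosomal protein genes left out, a fit without the filter, a minimum of 10 counts per library, a replicate block, one fit of all groups, a coding length offset and leaving out each replicate. An adjusted p that DESeq2 did not give was not counted as a lost call. The crossed replicate block, and the ratios between partner genes, were chosen after the data were seen. Each fit was tested on simulated data. Replicates of a group differed by more than counting noise (chi-square per gene 3.77 to 6.97).

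Genes were matched to the GRCm38 annotation, 19915 of 20661 by symbol and 613 by an older symbol. Start windows came from RefSeq promoters of GRCm38.p6. Named genes are the 10 members, *Cdkn2a*, the called pathway genes (at most the 6 largest per comparison and measure), *Eif4g1*, *Eif4e* and *Rps6*, and the 3 genes most like *Mtor*, *Larp1* and *Eif4ebp1*. Pathway genes called outside the largest 6, such as *Larp4* and *Pabpc1*, were named after their values were seen. The values of 1 called pathway gene are not reported here. The members, lists and tests were chosen with earlier results of these data known.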

Additional observations from a re-analysis of the deposited data

Results flagged for a closer look

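*Akt1s1* footprints differed between the conditions by a test of the difference itself. The log2 fold change of Arf-/--shSCR against WT-shARF MEFs was -0.78 (adjusted p = 0.0044, edgeR), with the WT-shSCR libraries between the groups. Against WT-shSCR the values were 0.42 ± 0.18 (SE) in WT-shARF and -0.35 ± 0.18 in Arf-/--shSCR MEFs, and neither passed. RNA of *Akt1s1* differed by 0.0052 and -0.16 in the same comparisons. Without WT-shARF replicate 1 or 2 the footprint difference was -0.85 (adjusted p = 0.310) or -0.69 (adjusted p = 0.303), and the call was lost. Groups of 2 replicates are too small for the test of outlying samples.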

How the results depend on the processing

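Under 12 or 13 alternatives per test, 1076 member values were recomputed, leaving out 34 to which DESeq2 gave no adjusted p, of which 1067 stayed on their side of the threshold with 5 losing and 4 gaining a call, and none reversed as a called value. The sign changed for 64 values that passed in neither fit. The member calls in WT-shARF against WT-shSCR footprints went from 1 to 0 with DESeq2 and ranged from 0 to 1 without single replicates. In RNA of Arf-/--shSCR against WT-shARF MEFs they went from 0 to 1 without the filter (*Eif4ebp2*) and to 2 with the crossed replicate block (both 4E-BPs), and ranged from 0 to 1 without single replicates. In footprints of that comparison they ranged from 0 to 1. The cause was not tested. A lone sample left in a group is assumed to vary like the others.

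The numbers of genes called in the whole table moved by over 1.5 times as follows. With DESeq2 they were 414 for 845 in RNA, 1153 for 1988 in footprints and 79 for 22 in TE after knockout, 291 for 765, 691 for 1147 and 55 for 4 in WT-shARF against WT-shSCR, and 553 for 900 in footprints and 27 for 5 in TE between Arf-/--shSCR and WT-shARF MEFs. Without the filter TE calls were 123, 40 and 77 in the 3 comparisons, and RNA calls of the last were 617 for 273. With at least 10 counts TE calls were 34 and 13 in the first comparisons. With all groups in one fit they were 52 and 0, and RNA calls in WT-shARF were 497. The coding length offset gave 8 TE calls for 5 in the last comparison. RLE factors gave 15 higher and 12 lower TE calls after knockout in place of 10 and 12. Without single replicates, calls ranged from 222 to 790 in RNA, 0 to 1193 in footprints and 6 to 51 in TE after knockout, from 274 to 883, 614 to 1067 and 7 to 24 in WT-shARF, and from 6 to 798, 0 to 781 and 1 to 125 in the last comparison.

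Equal replicate numbers share only a number, since no label ties them to a culture or day and their deviations correlated by -0.022 to 0.051. With a replicate block the member calls were 0, 1 and 1 in footprints of the 3 comparisons and 0 in RNA and TE, as without it, and TE calls in the whole table were 39 for 4 in WT-shARF and 8 for 5 in the last comparison. Over genes with more reads the correlation in RNA was -0.12, and with crossed numbers RNA calls were 1438, 464 and 832 and TE calls 49, 2 and 48.

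At this depth, members on under 100 reads per library (*Tsc1* and *Eif4ebp2*) had standard errors of up to 0.56 in RNA, so a change of 1.5 times could have been missed. The same holds for *Rps6kb1*, on 51 to 105 RNA reads in WT-shSCR and Arf-/--shSCR libraries, whose 95% interval in RNA after knockout reached a fold of 1.997. For *Mtor*, on 177 to 294 RNA reads in those libraries, the interval reached down to a fold of 0.570, and for *Rptor* to 0.526. In TE after knockout the 95% intervals ran from a fold of 0.849 to 2.107 for *Rptor*, 0.749 to 1.615 for *Mtor* and 0.819 to 1.818 for *Eif4ebp1*. A TE change of 1.5 times could have been missed for these genes. The narrowest TE interval was that of *Larp1*, from 0.743 to 1.316.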
